A study of Homo sapiens with 12 samples.

Results

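Batch 3 is the set of 4 libraries that carry batch number 3 in a series of 12 RNA-seq libraries of A2058 cells, an established human melanoma line. The labels give every library a batch number from 1 to 3 and do not say what the number stands for, such as a culture, an extraction or a sequencing run. Batch 3 was set against the 8 libraries of batches 1 and 2. Each batch held 1 library of each of 4 treatments, which were siSOX10_1, siSOX10_2, siCNTL and untreated. The siSOX10_1 and siSOX10_2 cells were transfected with either of 2 siRNAs against SOX10, and the siCNTL cells with a negative control siRNA. Each siRNA was given at 12.5 nM with a lipid reagent, and RNA was taken after 96 hours. The untreated cells received no siRNA. All libraries come from this 1 line, and SOX10 siRNA lowers the gene's RNA without removing the gene. Because treatment and batch were fully crossed, the batch 3 difference could be measured within each treatment. It could also be asked whether it was the same with and without SOX10 siRNA.

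Neural crest cells express the transcription factor SOX10, and melanocytes keep it. With MITF, which it activates, it turns on the pigment genes TYR, TYRP1, DCT, PMEL and MLANA. ATF4 is the transcription factor of the integrated stress response, which cells use when amino acids run short or proteins misfold, and its targets make and import amino acids. TXNIP, an arrestin-like protein that holds back glucose uptake, is transcribed by MondoA when glucose phosphates accumulate in the cell. These programs are introduced first because several genes with large batch 3 differences belong to them, though UTS2 and GAGE12E, among the largest falls, do not.

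The values are TPM, length-scaled transcript levels, which sum alike in each library and hold no record of read depth. A gene was tested if it had at least 1 TPM in at least 3 of the 12 libraries, which held for 15738 of 61587 genes. Differences are log2(TPM + 1) in batch 3 minus batches 1 and 2, with treatment as a block, and are given ± the standard error from limma. Genes are said to have risen or fallen only where the limma p, adjusted over all genes tested, was under 0.05. Defining melanocyte markers were present in every library, with PMEL at 89.6 to 4190 TPM and TYR at 44.2 to 1300 TPM. Markers of other cell types summed to 142 to 265 TPM in batch 3 and 147 to 226 TPM in batches 1 and 2. LUM and CD68 carried most of that sum, while KRT5 and KRT1 were listed at 0 in all 12 libraries. The 50 most abundant genes took 20.8% of TPM on average in batch 3 and 19.0% in batches 1 and 2. This was the clearest of 8 library summaries (exact permutation of the batch label within treatments, two-sided p = 0.0123, the smallest possible, adjusted p = 0.0984). In addition, 13990 genes reached 1 TPM on average in batch 3 against 14470 in batches 1 and 2 (exact permutation p = 0.037, adjusted p = 0.0987). The marker sum had the same permutation p and adjusted p, and the part of these library summaries in the results below was not tested.

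Batch 3 stood apart from both other batches in the transfected cells, with or without SOX10 siRNA, and less so in untreated cells. This describes single libraries, since each treatment had 1 library in batch 3, and does not show a dependence on transfection. The test of that dependence is given further below. Over 10290 genes averaging at least 5 TPM, the SD of the log2 difference from batches 1 and 2 was 0.575 and 0.544 for siSOX10_1 in batch 3, against 0.405 between batches 2 and 1. For siSOX10_2 the SDs were 0.581 and 0.529, against 0.419. For siCNTL they were 0.526 and 0.534, against 0.373. In untreated cells they were 0.425 from either batch, close to the 0.406 between batches 2 and 1, so the untreated library of batch 3 was about as far from the others as they were from each other. On the second principal component, which carried 12.3% of the variance, the batch 3 libraries lay at 38.1 (siSOX10_1), 34.5 (siSOX10_2), 32.8 (siCNTL) and 10.7 (untreated). The 8 others lay between -28.1 and 6.9, so all 4 libraries of batch 3 were above them.

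**Figure D1:**
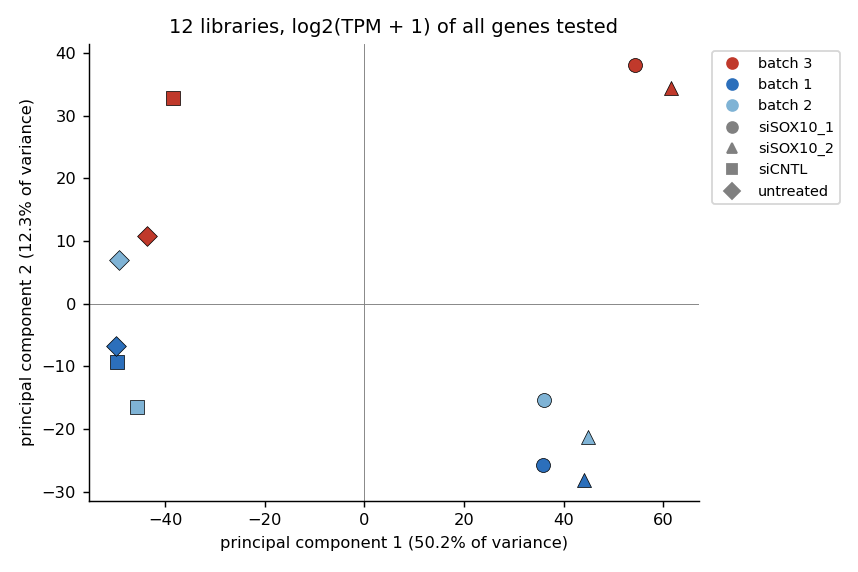
Each point is 1 of the 12 libraries on the first 2 principal components of log2(TPM + 1), with colour for batch and shape for treatment. The first component (50.2% of variance) separates the SOX10 siRNA libraries from the others, and on the second (12.3%) batch 3 lies above batches 1 and 2, with its untreated library at 10.7 the nearest to them.

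In batch 3, 1929 genes (12.3% of those tested) differed from batches 1 and 2. Of these, 271 rose (1.72%) and 1658 fell (10.5%), and 17 of the rises and 188 of the falls were past 2-fold. The median over all genes tested was -0.11. Under median-of-ratios scaling, which moved that median by 0.13, the split was 867 higher (5.51%) and 852 lower (5.41%), so the excess of falling genes depends on the scaling. The 271 rises were called under both scalings, as were 852 of the falls. The other batches did not differ from each other at this threshold. Between batches 2 and 1, limma called 0 genes (677 at an unadjusted p under 0.05), and 0 under median-of-ratios scaling, but 126 without siCNTL replicate 2. With the 3 batches as separate terms, 947 genes differed between batches 3 and 1 (6.02%), of which 0.991% of genes tested rose and 5.03% fell. Between batches 3 and 2, 681 differed (4.33%), with 0.559% higher and 3.77% lower. Under median-of-ratios scaling these splits were 2.31% and 2.57%, and 2.16% and 1.73%. Both counts moved with 1 library, the one against batch 1 between 109 (without siSOX10_2 replicate 1) and 1917 (without untreated replicate 3), and the one against batch 2 between 100 (without siSOX10_2 replicate 2) and 1546 (without untreated replicate 3). The batch 3 library was above both others of its treatment in all 4 treatments for 425 genes (2.70%) and below both for 1938 (12.3%). The count of 1929 fell to 763 without siSOX10_2 replicate 3 and was 2752 without untreated replicate 3. Whether the libraries were separate cultures is not stated, so a p-value here measures library spread, which may be technical. As batch 3 is 1 batch, they do not say how far a further batch would lie.

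The gene targeted by the siRNAs was lower in the SOX10 siRNA libraries of batch 3 than in those of the other batches. In batch 3 SOX10 stood at 3.32 TPM in siSOX10_1 cells and 4.24 TPM in siSOX10_2 cells. In batches 1 and 2 it stood at 12.8 and 12.8 TPM in siSOX10_1 cells and at 11.8 and 8.95 TPM in siSOX10_2 cells. In the control libraries the order was the other way, with siCNTL at 36.8 TPM in batch 3 against 30.0 and 28.6 TPM, and untreated cells at 32.4 TPM against 22.3 and 26.0 TPM. As a share of siCNTL in the same batch, SOX10 was at 9.03% with siSOX10_1 and 11.5% with siSOX10_2 in batch 3. The shares were 42.6% and 39.4% in batch 1, and 44.8% and 31.3% in batch 2. The batch 3 difference of SOX10 thus depended on SOX10 siRNA, with a log2 difference between the differences of -1.76 ± 0.239 (limma adjusted p = 0.00126). SOX10 overlaps POLR2F on the opposite strand, and the sources used here do not state whether counting used strand. How reads were split between these genes is not known, so the SOX10 values may hold reads of POLR2F. In bulk RNA, fewer cells holding a transcript and less of it per cell cannot be told apart.

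The other genes of the series title showed no such dependence by this test. ITGA3, an integrin alpha chain, was at 220 and 167 TPM with siSOX10_1 and siSOX10_2 in batch 3, against 143 to 176 TPM in the 4 SOX10 siRNA libraries of batches 1 and 2. Its batch 3 difference was 0.23 ± 0.110 (limma adjusted p = 0.196). EPHA2, a receptor tyrosine kinase for ephrins, differed by 0.27 ± 0.106 (limma adjusted p = 0.116), and PTK2, which encodes the focal adhesion kinase FAK, by 0.21 ± 0.0963 (adjusted p = 0.180). Under median-of-ratios scaling all 3 passed (ITGA3 adjusted p = 0.0468, EPHA2 0.0241, PTK2 0.0143). IRF1, which drives interferon-responsive transcription, was at 27.3 and 63.3 TPM with the SOX10 siRNAs in batch 3, against 64.6 and 102 TPM in batch 1 and 49.7 and 82.9 TPM in batch 2. Its difference of -0.93 ± 0.355 did not pass (limma adjusted p = 0.123), and its siCNTL library of batch 2, at 39.3 TPM, stood apart from those of batch 3 (5.79 TPM) and batch 1 (8.68 TPM). The dependence on SOX10 siRNA was 0.18 ± 0.209 for ITGA3, 0.05 ± 0.206 for EPHA2, -0.40 ± 0.153 for PTK2 and 0.31 ± 0.797 for IRF1 (limma adjusted p of 0.698, 0.93, 0.168 and 0.877).

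TXNIP (chromosome 1, 145992435 to 145996579, minus strand, GRCh38) showed the largest rise of the 12 genes picked for large rises. It was at 452 TPM with siSOX10_1 in batch 3, against 29.1 and 37.1 TPM in batches 1 and 2. With siSOX10_2 it was at 192 TPM, against 5.88 and 6.56 TPM, and with siCNTL at 75.6 TPM, against 5.19 and 4.53 TPM. In untreated cells it was at 68.2 TPM, against 4.66 and 3.41 TPM, so the lowest of the 4 libraries of batch 3 lay above the highest of the other 8. The within-treatment ratios were 13.6, 30.9, 15.6 and 16.9, and the log2 difference was 4.00 ± 0.161 (limma adjusted p = 3.26e-08). It did not depend on SOX10 siRNA by this test (0.49 ± 0.289, adjusted p = 0.369). ARRDC4, an alpha-arrestin that MondoA also activates, was at 20.8, 7.88, 4.81 and 7.64 TPM in batch 3 in the order siSOX10_1, siSOX10_2, siCNTL and untreated. In batches 1 and 2 it ranged from 0.604 to 4.02 TPM, below all 4, and the log2 difference was 1.89 ± 0.232 (limma adjusted p = 0.000648). These are the only 2 members of the list of MondoA targets, which was chosen with earlier results of these data known. The activity of MondoA was not tested. MondoA acts with its partner MLX through carbohydrate response elements, which are paired E-box-like sequences near a gene's start. The TXNIP promoter is therefore shown, as RefSeq gives it on GRCh38.p14 (chr1:145996530-145996829, minus strand, 250 bases before to 50 after the annotated start), with a match in capitals to a pair of CACGNG boxes set 5 bases apart. The match starts 88 bases before the annotated start, and 20 of 35116 windows of this length (0.057%) hold one on either strand, or 16 of the 15445 windows of tested genes (0.104%).
TXNIP: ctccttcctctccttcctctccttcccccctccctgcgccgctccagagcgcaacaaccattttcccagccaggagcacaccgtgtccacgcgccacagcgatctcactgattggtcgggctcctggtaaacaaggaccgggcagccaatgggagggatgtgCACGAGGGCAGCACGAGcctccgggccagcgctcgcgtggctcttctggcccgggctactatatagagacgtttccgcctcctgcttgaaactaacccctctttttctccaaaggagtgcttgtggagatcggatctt
Of the windows of these 2 genes, 1 of the 2 listed for TXNIP held a match, and that of ARRDC4 held none.

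The stress-induced Hsp70 genes also rose in every treatment. HSPA1B, an inducible heat shock chaperone, was at 359, 240, 198 and 145 TPM in batch 3 with siSOX10_1, siSOX10_2, siCNTL and in untreated cells. Its matched values in batches 1 and 2 were 193 and 192, 143 and 111, 104 and 127, and 78.0 and 72.0 TPM, so each batch 3 library was above both others of its treatment. The difference was 0.89 ± 0.0816 (limma adjusted p = 0.000112), and that of its near-identical copy HSPA1A was 0.84 ± 0.0898 (adjusted p = 0.000318). How reads were split between these copies is not known. Of 14 heat shock genes tested, 4 rose (HSPA1A, HSPA1B, HSPA8 and DNAJB1) and 2 fell (CRYAB and HSPE1), against 1.72% and 10.5% of all genes, with a median of 0.12. The share of falls was thus near that of all genes. Under median-of-ratios scaling 7 rose and 1 fell, against 5.51% and 5.41%, and without siSOX10_1 replicate 3 the rises numbered 2.

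The remaining genes that the rule picked among rises were less alike in function. FDCSP, a small secreted protein, was at 8.27, 7.12, 10.1 and 15.1 TPM in batch 3 and at 1.73 to 7.01 TPM in the other 8 libraries. LAMA2, a laminin chain of basement membranes, was at 8.04 to 13.1 TPM against 1.70 to 7.27 TPM, and HLA-DQB1, a class II antigen-presenting chain, at 11.1 to 18.9 TPM against 3.58 to 7.70 TPM. For these 3 genes the batch 3 libraries lay above all 8 others. Of the genes tested, 33 had all 4 batch 3 libraries above the 8 others (0.210%) and 371 had them below (2.36%). SRSF12, an SR-type splicing regulator (1.26 ± 0.175), CTSK, the lysosomal protease cathepsin K (1.10 ± 0.132), LINC00674 (0.84 ± 0.144) and SAA1, an acute-phase protein (0.79 ± 0.133), also rose. SLC5A3, a myo-inositol transporter that lies within the interval of MRPS6 (0.77 ± 0.156), and COPZ2, a coatomer subunit (0.84 ± 0.203), rose as well. In each of these 6 genes every batch 3 library was above both others of its treatment. The limma adjusted p of these genes ran from 0.000559 (CTSK) to 0.0229 (COPZ2), and the COPZ2 call was lost without any 1 of the transfected libraries of batch 3 (adjusted p = 0.0600 without siCNTL, 0.0511 without siSOX10_1 and 0.0795 without siSOX10_2). MRPS6 itself rose by 0.70 ± 0.0988 (limma adjusted p = 0.00151). How reads were split between MRPS6 and SLC5A3 is not known.

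On deposited TPM, most tested genes of the integrated stress response fell in batch 3. Of 24 tested, 16 fell and 0 rose, against 10.5% and 1.72% of all genes, with a median of -0.62 beside -0.11 over all genes. Under median-of-ratios scaling 9 fell and 0 rose, against 5.41% and 5.51% of all genes. The falls numbered 11 without siSOX10_2 replicate 1. With batch 2 alone as the reference 1 fell, and 24 genes were called there in all. By treatment the medians were -0.49 with siSOX10_1, -0.80 with siSOX10_2, -0.83 with siCNTL and -0.44 in untreated cells. ATF4 itself was at 79.5, 77.4, 105 and 110 TPM in batch 3, in the order siSOX10_1, siSOX10_2, siCNTL and untreated, and at 204 to 292 TPM in the other 8 libraries. All 4 libraries lay below all 8 (log2 difference -1.39 ± 0.116, limma adjusted p = 7.97e-05), and the dependence on SOX10 siRNA did not pass (-0.55 ± 0.169, adjusted p = 0.0884).

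CHAC1 and DDIT3 fell furthest in this list. CHAC1, an enzyme that breaks down glutathione, was at 4.63, 5.70, 2.99 and 5.33 TPM in batch 3 with siSOX10_1, siSOX10_2, siCNTL and in untreated cells. In batches 1 and 2 it was at 25.5 and 17.1, 66.1 and 75.5, 35.7 and 48.8, and 23.0 and 17.3 TPM. The batch 3 libraries were thus near one level, below all 8 others, which spread from 17.1 to 75.5 TPM (log2 difference -2.63 ± 0.278, limma adjusted p = 0.000613). DDIT3, the transcription factor CHOP, was at 98.9, 72.9, 63.7 and 81.5 TPM in batch 3 and at 185 to 668 TPM in the others (-2.30 ± 0.318, limma adjusted p = 0.00521). ASNS, which makes asparagine, fell by 1.21 ± 0.147 and PSAT1, of serine synthesis, fell by 0.87 ± 0.107 on the log2 scale (limma adjusted p = 0.000606 and 0.000688). TRIB3, a pseudokinase induced by CHOP, fell by 0.85 ± 0.158, SESN2, a nutrient sensor of the mTORC1 pathway, by 0.93 ± 0.169, SLC7A11, the cystine importer, by 0.98 ± 0.16, and SHMT2, of mitochondrial one-carbon metabolism, by 0.42 ± 0.0857. Under median-of-ratios scaling the SHMT2 difference was -0.26 and not called (limma adjusted p = 0.0677). GDF15, a secreted stress hormone that stands in the p53 list here, was at 256, 181, 834 and 1209 TPM in batch 3 against 817 to 2365 TPM in the others (-1.59 ± 0.226, limma adjusted p = 0.00509). In that list of 22 p53 targets and cell cycle inhibitors 7 fell and 1 rose, against 10.5% and 1.72% of all genes, with 4 falls without siSOX10_2 replicate 3. Under median-of-ratios scaling 4 fell and 2 rose, against 5.41% and 5.51%.

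ATF4 binds with C/EBP proteins at composite elements. The promoters of CHAC1 and ASNS are shown because both genes fell and hold a match to TGATGNAA, in capitals, on either strand (RefSeq, GRCh38.p14: CHAC1 chr15:40953221-40953520, plus strand, and ASNS chr7:97872359-97872658, minus strand).
CHAC1: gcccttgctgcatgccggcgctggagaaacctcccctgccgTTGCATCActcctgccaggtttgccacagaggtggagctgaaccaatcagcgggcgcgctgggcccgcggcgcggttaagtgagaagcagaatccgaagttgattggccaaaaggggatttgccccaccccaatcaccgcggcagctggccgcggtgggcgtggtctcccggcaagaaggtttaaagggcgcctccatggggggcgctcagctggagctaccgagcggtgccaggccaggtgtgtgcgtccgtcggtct
ASNS: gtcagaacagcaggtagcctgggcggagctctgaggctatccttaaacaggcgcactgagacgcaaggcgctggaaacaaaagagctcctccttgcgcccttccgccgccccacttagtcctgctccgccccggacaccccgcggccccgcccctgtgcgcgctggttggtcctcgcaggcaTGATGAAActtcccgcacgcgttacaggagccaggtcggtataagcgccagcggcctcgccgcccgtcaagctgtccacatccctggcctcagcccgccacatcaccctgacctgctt
The 19 list members with a promoter have 30 windows, of which 5 held a match (ASNS, CEBPG, CHAC1, SLC3A2 and SLC7A1). The motif occurs in 3.62% of all 35116 windows and in 1.97% of the windows of tested genes. A match describes the letters only.

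The unfolded protein response, which shares CHOP and protein-folding targets with that program, fell in part. Of 19 genes tested 8 fell and 0 rose (median -0.37), against 10.5% and 1.72% of all genes. Under median-of-ratios scaling 2 fell, beside 5.41% of all genes. With batches 1 and 2 as separate terms 4 did, and without siSOX10_2 replicate 3 it was 3. HSP90B1, a chaperone of the endoplasmic reticulum, was at 964, 728, 762 and 834 TPM in batch 3 and at 1006 to 1646 TPM in the others (-0.64 ± 0.102, limma adjusted p = 0.00315). The medians by treatment were 0.02 with siSOX10_1, -0.32 with siSOX10_2, -0.76 with siCNTL and -0.30 in untreated cells.

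**Figure D2:**
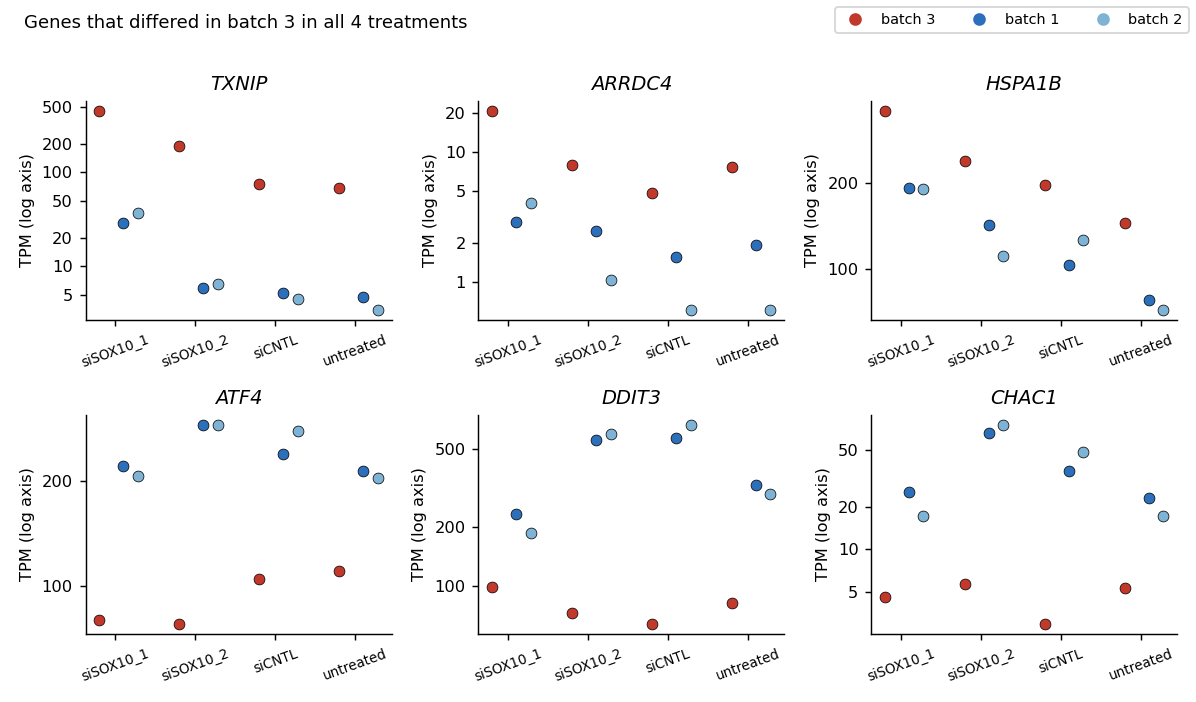
TPM on a log axis of 6 genes in each library, by treatment, with batch 3 in red left of batches 1 and 2 in 2 blues. TXNIP, ARRDC4 and HSPA1B are higher and ATF4, DDIT3 and CHAC1 lower in batch 3 than in both other libraries of the same treatment in all 4 treatments.

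Several secreted and lineage genes fell furthest. UTS2, which encodes the peptide hormone urotensin 2, was listed at 0 TPM with siSOX10_1 in batch 3, against 183 and 177 TPM in batches 1 and 2. It was at 1.38 TPM with siSOX10_2 against 151 and 150 TPM, at 9.33 TPM with siCNTL against 115 and 115 TPM, and at 7.62 TPM in untreated cells against 37.3 and 36.1 TPM. Batch 3 was below all others in every treatment (-4.78 ± 0.773, limma adjusted p = 0.0103, and 0.0513 without siSOX10_2 replicate 3), and the gap was wider under SOX10 siRNA (-3.93 ± 0.516, adjusted p = 0.00586, and 0.0532 with a pseudocount of 0.1). FABP7, a fatty acid-binding protein of glia and melanoma, was at 2.50, 1.75, 33.8 and 79.6 TPM in batch 3 with siSOX10_1, siSOX10_2, siCNTL and in untreated cells. Its values in batches 1 and 2 were 16.7 and 13.8, 13.6 and 12.8, 192 and 181, and 288 and 207.7 TPM, and it fell by 2.15 ± 0.136 (limma adjusted p = 3.24e-06). GAGE12E, a cancer-testis antigen with near-identical copies, was at 0 to 0.709 TPM in batch 3 and at 1.91 to 17.2 TPM in the others (-2.62 ± 0.23, limma adjusted p = 9.39e-05). SERPINA5, a serine protease inhibitor (-2.08 ± 0.309), AZGP1, a secreted lipid-mobilising glycoprotein (-1.92 ± 0.222), ART3, an ADP-ribosyltransferase family member (-1.86 ± 0.257) and LINC02289 (-1.83 ± 0.193) were lower in batch 3 in every treatment and fell. EGFL8, an EGF-like secreted protein (-1.88 ± 0.426), and FXYD3, a regulator of the sodium pump (-1.83 ± 0.350), did too, but their calls were lost without 1 library (adjusted p up to 0.121 for EGFL8 without siSOX10_2 replicate 3, and 0.0670 for FXYD3 without siSOX10_1 replicate 3).

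Part of the mitotic genes rose. Of 28 genes of G2 and mitosis 11 rose and 0 fell, against 1.72% and 10.5% of all genes, with a median of 0.24. Under median-of-ratios scaling 16 rose and 0 fell, against 5.51% and 5.41% of all genes. CCNA2, cyclin A2, was at 130, 116, 74.2 and 65.5 TPM in batch 3 with siSOX10_1, siSOX10_2, siCNTL and in untreated cells. In batches 1 and 2 it was at 87.6 and 81.0, 80.0 and 76.4, 43.9 and 35.2, and 56.6 and 37.8 TPM, lower in each treatment (0.64 ± 0.111, limma adjusted p = 0.00407). BIRC5, the inhibitor of apoptosis survivin, rose by 0.52 ± 0.0785 (limma adjusted p = 0.00202), and PLK1, a mitotic kinase, by 0.37 ± 0.0806 (adjusted p = 0.0113, and 0.0630 without siSOX10_2 replicate 3). Without siCNTL replicate 3 the count was 2 of 28. Among 27 genes of DNA replication 1 rose (TK1, thymidine kinase, 0.65 ± 0.0808) and 1 fell (MCM3, not called under median-of-ratios scaling), and of 25 replication-dependent histone genes 4 rose and 0 fell, with 2 rises without siSOX10_2 replicate 3. By treatment the median of the mitotic list was 0.04 with siSOX10_1, 0.10 with siSOX10_2, 0.51 with siCNTL and 0.24 in untreated cells.

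Interferon-stimulated genes and splicing regulators were among those that fell. Of 37 type I interferon-stimulated genes 13 fell and 0 rose (median -0.34), against 10.5% and 1.72% of all genes, and 8 fell under median-of-ratios scaling, against 5.41%. The count was 4 without siSOX10_2 replicate 3. IFITM1, a membrane protein that restricts viral entry, was at 102, 249, 34.4 and 38.3 TPM in batch 3 with siSOX10_1, siSOX10_2, siCNTL and in untreated cells. In batches 1 and 2 it was at 317 and 249, 479 and 452, 82.1 and 95.2, and 46.2 and 73.8 TPM, so each batch 3 library was below both others of its treatment (-1.07 ± 0.152, limma adjusted p = 0.00213). BST2, which tethers virions, fell by 0.75 ± 0.0956 (limma adjusted p = 0.000820). Of 28 splicing factors 8 fell and 1 rose, and under median-of-ratios scaling 6 fell and 2 rose, against 5.41% and 5.51% of all genes. Without siCNTL replicate 3 the falls numbered 5. DDX5, an RNA helicase, was at 168 to 247 TPM in batch 3 and at 365 to 431 TPM in the others (-0.93 ± 0.0835, limma adjusted p = 9.39e-05). The SR proteins SRSF5, SRSF1 and SRSF3 fell by 0.96 ± 0.11, 0.85 ± 0.122 and 0.61 ± 0.0801. Of 11 abundant long noncoding RNAs 3 fell, and all 3 are hosts of small nucleolar RNAs (SNHG12, SNHG1 and GAS5), with GAS5 at 114 to 251 TPM in batch 3 and 219 to 425 TPM in the others.

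In other lists fewer members changed, and their counts stand beside 10.5% falls and 1.72% rises over all genes, or 5.41% and 5.51% under median-of-ratios scaling. EGR1 (-1.54 ± 0.202) and FOS (-0.86 ± 0.114), immediate early genes, fell while KLF6 (0.52 ± 0.1001), of the same list, rose (limma adjusted p = 0.000928, 0.000981 and 0.00685), and 2 of 18 members rose and 4 fell in all. NFKBIA, the inhibitor of NF-kB, rose by 0.70 ± 0.0776 (limma adjusted p = 0.000330), and CD44, a hyaluronan receptor, rose by 0.43 ± 0.0594 (adjusted p = 0.00123). Of 24 matrix genes 6 fell and 0 rose, with FN1, fibronectin, lower by 0.61 ± 0.10. Under median-of-ratios scaling 2 fell and 1 rose, and only the counts under that scaling are near the shares of all genes. Of 37 lysosomal genes 9 fell and 3 rose, and of 24 cholesterol synthesis genes 5 fell and 0 rose. Both flip with the scaling, to 4 falls and 5 rises and to 2 falls and 3 rises under median of ratios, and the lysosomal falls numbered 2 without siSOX10_2 replicate 3 and the cholesterol falls 1 without siCNTL replicate 3. Of 78 cytosolic ribosomal protein genes 1 rose and 4 fell, a smaller share of falls than over all genes, and under median-of-ratios scaling 9 rose and 0 fell. TNFRSF19, a receptor induced by Wnt signalling (-1.25 ± 0.111), SGK1, a glucocorticoid-induced kinase (-0.68 ± 0.0919), and SPRY4, a feedback inhibitor of MAP kinase signalling (-0.91 ± 0.173), also fell.

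**Figure D3:**
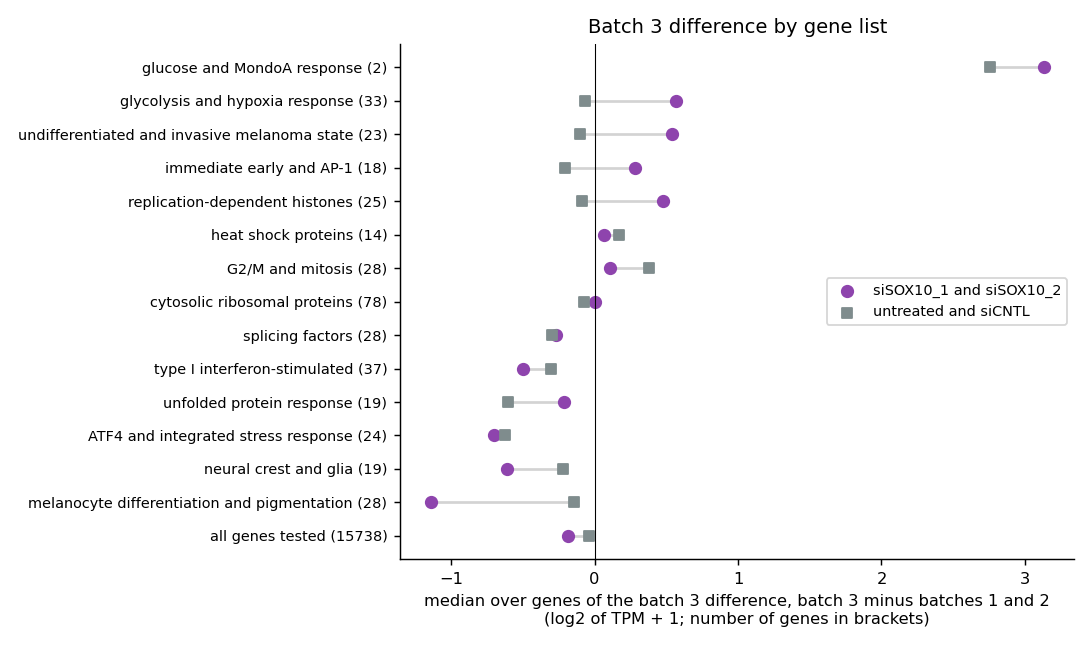
Each row is a gene list, with the median over its genes of the batch 3 difference (batch 3 minus batches 1 and 2, log2 of TPM + 1) under the SOX10 siRNAs (circles) and in untreated and siCNTL cells (squares). The lists of MondoA targets and of the integrated stress response lie on the same side of 0 in both, while the melanocyte list lies lower and the glycolysis and hypoxia list higher under the SOX10 siRNAs.

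The batch 3 difference depended on SOX10 siRNA for 743 genes (4.72% of those tested). For 200 of them the difference was higher under the SOX10 siRNAs than in untreated and siCNTL cells (1.27%), and for 543 it was lower (3.45%). The split was 381 higher (2.42%) and 301 lower (1.91%) under median-of-ratios scaling, which moved the median of all genes by 0.14. The same numbers state how the SOX10 siRNA effect, taken against untreated and siCNTL cells together, differed between batch 3 and batches 1 and 2. SOX10 siRNA is thus not set apart from transfection. Fewer genes were called with siCNTL alone as the control, where batch 3 holds 1 control library. Taken separately, 2998 genes differed in batch 3 under the SOX10 siRNAs (19.0%), of which 458 were higher (2.91%) and 2540 lower (16.1%), against 9.53% and 7.64% under median-of-ratios scaling. In untreated and siCNTL cells 714 did (4.54%), of which 196 were higher (1.25%) and 518 lower (3.29%), against 1.86% and 2.47% under that scaling. Without siCNTL replicate 3 the control count was 30, and without untreated replicate 3 the count that depended on SOX10 siRNA was 275.

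**Figure D4:**
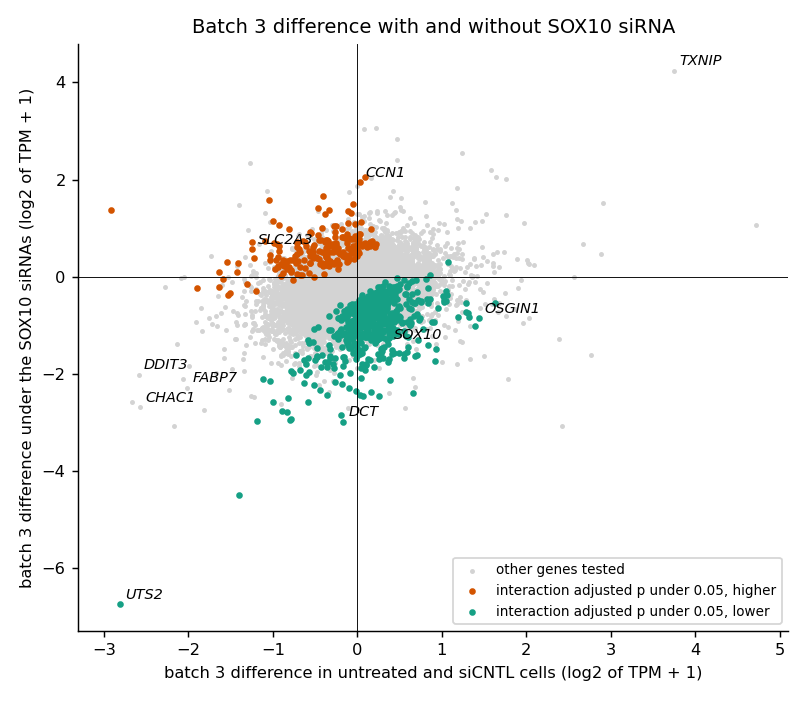
Each point is a gene, with its batch 3 difference in untreated and siCNTL cells on the horizontal axis and under the SOX10 siRNAs on the vertical axis, both log2 of TPM + 1. The 200 genes with a higher difference under the SOX10 siRNAs are orange and the 543 with a lower one green, and TXNIP lies far above 0 on both axes.

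Many melanocyte genes were lower in batch 3 after SOX10 siRNA than in the other batches after the same siRNA. Of 28 melanocyte genes the difference was lower under the SOX10 siRNAs for 13 and higher for 0, against 3.45% and 1.27% of all genes. Under median-of-ratios scaling it was 13 and 0, against 1.91% and 2.42% of all genes. The list's median batch 3 difference was -1.31 with siSOX10_1 and -1.08 with siSOX10_2, against -0.38 with siCNTL and -0.07 in untreated cells. DCT, dopachrome tautomerase of eumelanin synthesis, was at 144 TPM with siSOX10_1 in batch 3, against 1215 and 1203 TPM, and at 118 TPM with siSOX10_2, against 912 and 878 TPM. The siCNTL library of batch 3 held 2830 TPM against 3750 and 4144 TPM, and the untreated one 4310 TPM against 3881 and 3930 TPM. The batch 3 values after SOX10 siRNA were thus 8.38-fold and 7.61-fold lower than the means of the other batches, while the untreated library was higher (dependence -2.82 ± 0.155, limma adjusted p = 1.86e-06). MITF, the master regulator of melanocytes, was at 35.6 and 29.01 TPM with siSOX10_1 and siSOX10_2 in batch 3, against 133 and 131 TPM and 102 and 86.4 TPM. It was higher in batch 3 in controls, at 465 TPM with siCNTL against 321 and 349 TPM, and at 435 TPM in untreated cells against 357 and 370 TPM (dependence -2.13 ± 0.135, limma adjusted p = 2.38e-06). TYR, tyrosinase, was at 44.2 and 48.5 TPM after SOX10 siRNA in batch 3, against 201 to 249 TPM, and at 965 and 1283 TPM in its controls, against 1091 to 1303 TPM (-2.19 ± 0.134, limma adjusted p = 1.88e-06).

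Others of the program followed the same course to differing extents. CAPN3, a calpain that MITF activates in melanocytic cells (-2.05 ± 0.141), MLANA, the antigen Melan-A (-2.07 ± 0.155), TRPM1, a cation channel (-1.91 ± 0.191), RAB38, of melanosome transport (-1.43 ± 0.138), and GPNMB, a melanosomal glycoprotein (-1.37 ± 0.122), had a lower difference under the SOX10 siRNAs. The limma adjusted p of these 5 was 1.06e-04 or less. PMEL, the amyloid scaffold of melanosomes, was at 89.6 and 103 TPM after SOX10 siRNA in batch 3, against 593 to 930 TPM. It was at 1825 TPM with siCNTL in batch 3 against 3963 and 4187 TPM, and at 2714 TPM in untreated cells against 3739 and 3431 TPM. PMEL therefore fell over all treatments (-1.85 ± 0.421, limma adjusted p = 0.0313, and 0.0509 with batches 1 and 2 as separate terms) and more under SOX10 siRNA (-2.14 ± 0.285, adjusted p = 0.00659). Its call over all treatments was lost without any 1 of 8 libraries (limma adjusted p up to 0.124, without siSOX10_2 replicate 3). TYRP1, a melanosomal oxidase, fell over all treatments (-1.61 ± 0.171, limma adjusted p = 0.000318), and its dependence on SOX10 siRNA was smaller (-0.99 ± 0.197, adjusted p = 0.0136, and 0.09995 without untreated replicate 3). With a pseudocount of 5 that dependence was -0.34 and not called (limma adjusted p = 0.318). Over all treatments 12 of the 28 fell and 0 rose, against 10.5% and 1.72% of all genes.

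MITF binds M-boxes in pigment gene promoters. TYR and TYRP1 are shown because they hold a match to TCATGTG, in capitals, and were lower in every batch 3 library with a SOX10 siRNA than in both others of that treatment (RefSeq, GRCh38.p14: TYR chr11:89177625-89177924 and TYRP1 chr9:12693135-12693434, both plus strand).
TYR: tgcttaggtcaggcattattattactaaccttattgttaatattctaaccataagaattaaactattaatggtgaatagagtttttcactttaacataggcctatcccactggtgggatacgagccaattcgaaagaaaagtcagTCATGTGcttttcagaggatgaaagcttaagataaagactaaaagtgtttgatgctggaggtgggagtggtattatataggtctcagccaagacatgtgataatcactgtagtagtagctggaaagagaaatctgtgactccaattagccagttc
TYRP1: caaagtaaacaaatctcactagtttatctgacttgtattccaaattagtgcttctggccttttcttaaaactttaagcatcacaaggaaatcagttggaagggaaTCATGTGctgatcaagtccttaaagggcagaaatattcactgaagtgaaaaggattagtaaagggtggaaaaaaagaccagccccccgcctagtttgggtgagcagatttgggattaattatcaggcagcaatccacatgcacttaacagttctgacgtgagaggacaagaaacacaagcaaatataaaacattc
The match starts 105 bases before the annotated start of TYR and 145 before that of TYRP1. The 23 melanocyte genes with a promoter have 42 windows, of which 8 held one, beside 2.92% of all windows and 1.92% of the windows of tested genes. Of the 10 melanocyte genes with a window that fell over all treatments, 3 held one.

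Glial and neural crest genes partly followed. Of 19 genes of the list 5 had a lower difference under the SOX10 siRNAs (GJB1, MBP, S100B and SOX10 among them) and 2 a higher one (L1CAM and ZEB2), against 3.45% and 1.27% of all genes. GJB1, a gap junction protein (-1.23 ± 0.215), and S100B, a calcium-binding protein (-0.82 ± 0.136), lost their calls without 1 library of batch 3 (adjusted p = 0.0522 without siSOX10_1 replicate 3, and 0.0512 without untreated replicate 3). MBP, myelin basic protein (-1.06 ± 0.128), and L1CAM, a neural adhesion molecule (1.62 ± 0.245), did not. With a pseudocount of 5 the GJB1 value was -0.35 and not called (limma adjusted p = 0.255). Outside the lists, LHFPL3-AS1 (-2.65 ± 0.225), SERPINA5 (-1.78 ± 0.212), EGFL8 (-2.17 ± 0.308) and FXYD3 (-1.87 ± 0.226) had a lower difference, as did RANBP3-DT (-3.05 ± 0.615) and CLDND2 (-2.72 ± 0.465). The calls of RANBP3-DT, CLDND2 and EGFL8 were lost without untreated replicate 3 (limma adjusted p = 0.137, 0.0655 and 0.0512).

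Many genes of glucose uptake, glycolysis and hypoxia ran the other way. Of 33 tested, the batch 3 difference was higher under the SOX10 siRNAs for 15 and lower for 0, against 1.27% and 3.45% of all genes, and it was 18 and 0 under median-of-ratios scaling and 9 higher without untreated replicate 3. Over all genes, 2.42% were higher and 1.91% lower under median-of-ratios scaling. The list's median batch 3 difference was 0.52 with siSOX10_1 and 0.54 with siSOX10_2, against 0.04 with siCNTL and -0.13 in untreated cells. SLC2A1, the glucose transporter GLUT1, was at 474 and 638 TPM with siSOX10_1 and siSOX10_2 in batch 3, against 302 and 291 TPM and 383 and 416 TPM. It was at 68.6 TPM with siCNTL against 121 and 115 TPM, and at 47.5 TPM in untreated cells against 120 and 91.3 TPM. The 2 SOX10 siRNA libraries of batch 3 were thus above and the 2 control libraries below both other libraries of their treatment (dependence 1.62 ± 0.159, limma adjusted p = 9.31e-05). SLC2A3, the transporter GLUT3, showed the same order, at 145 and 194 TPM in batch 3 after SOX10 siRNA against 85.4 to 145 TPM, and at 25.1 and 28.3 TPM in its controls against 57.0 to 71.5 TPM (1.81 ± 0.161, limma adjusted p = 4.53e-05). ARRDC3, an alpha-arrestin related to TXNIP, was at 104 and 62.3 TPM after SOX10 siRNA in batch 3 against 39.7 to 59.3 TPM, and at 10.9 and 12.4 TPM in its controls against 23.2 to 36.04 TPM (1.96 ± 0.208, limma adjusted p = 0.000186). TXNIP and ARRDC4 did not share this order, being higher in batch 3 in all 4 treatments.

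In untreated and siCNTL cells 8 of these 33 genes were lower in batch 3 and 1 higher, against 3.29% and 1.25% of all genes. Under median-of-ratios scaling 7 were lower, against 2.47% of all genes. The lower ones included the glucose transporters SLC2A1 and SLC2A3, hexokinase HK2 and the glycolysis regulators PFKFB3 and PFKFB4. For LDHA the control libraries of batch 3 lay within the range of the others. LDHA, lactate dehydrogenase A, was at 3748 and 4202 TPM after SOX10 siRNA in batch 3 against 2005 to 2469 TPM, and at 2613 and 2765 TPM in its controls against 2457 to 3124 TPM (0.85 ± 0.0894, limma adjusted p = 0.000164). PGK1, phosphoglycerate kinase (0.82 ± 0.0826), BNIP3, a hypoxia-induced mitophagy receptor (1.00 ± 0.127), and HK2, hexokinase 2 (1.35 ± 0.254), also had a higher difference. HK2 lost its call without untreated replicate 3 (limma adjusted p = 0.0825), while PGK1, BNIP3 and LDHA kept theirs without any 1 library. Over all treatments 8 of the 33 rose and 1 fell, against 1.72% and 10.5% of all genes, but 1 rose without siSOX10_2 replicate 3.

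Some genes of the undifferentiated, invasive melanoma state were also higher in batch 3 after SOX10 siRNA. For 7 of 23 the difference was higher under the SOX10 siRNAs (AXL, CAV1, CCN1, CCN2, DKK1, FOSL1 and NT5E) and for 0 lower, against 1.27% and 3.45% of all genes, and for 3 it was higher without siSOX10_1 replicate 3. CCN1, a matricellular protein, was at 230 and 342 TPM with siSOX10_1 and siSOX10_2 in batch 3, against 69.8 to 75.4 TPM. In its controls it was at 5.57 and 9.37 TPM against 5.86 to 8.74 TPM, a range the batch 3 libraries just exceed on both sides (1.91 ± 0.252, limma adjusted p = 0.00110). FOSL1, an AP-1 subunit, was at 541 and 635 TPM after SOX10 siRNA in batch 3 against 291 to 351 TPM, and at 24.3 and 19.6 TPM in its controls against 27.2 to 39.9 TPM (1.44 ± 0.125, limma adjusted p = 3.90e-05). CAV1, caveolin 1, differed by 1.12 ± 0.162 (limma adjusted p = 0.00206), and AXL, a receptor tyrosine kinase, by 1.19 ± 0.23 (adjusted p = 0.0110, and 0.0655 without untreated replicate 3). DKK1, a secreted Wnt antagonist, differed by 1.83 ± 0.334 (limma adjusted p = 0.00882, and 0.0546 without siSOX10_1 replicate 3).

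Some immediate early genes and targets of MAP kinase signalling also had a higher difference under the SOX10 siRNAs. IER3, an immediate early gene, was at 227 and 186 TPM after SOX10 siRNA in batch 3 against 152 to 185 TPM, and at 16.4 and 24.2 TPM in its controls against 50.5 to 72.0 TPM (1.84 ± 0.241, limma adjusted p = 0.00144). Among 18 immediate early genes 5 had a higher difference and 0 a lower one, against 1.27% and 3.45% of all genes, with IER2 at 0.90 ± 0.147, and the higher ones numbered 3 without untreated replicate 3. Of 15 MAP kinase targets 3 had a higher difference and 0 a lower one. These included DUSP6, a phosphatase of ERK, which was at 137 and 206.7 TPM after SOX10 siRNA in batch 3 against 141 to 277 TPM, and at 16.7 and 30.6 TPM in its controls against 77.7 to 108 TPM (1.66 ± 0.29, limma adjusted p = 0.0131, and 0.0930 without siSOX10_1 replicate 3). SPRY2, an inhibitor of receptor tyrosine kinase signalling, differed by 1.13 ± 0.175 (limma adjusted p = 0.00304). The actins ACTB and ACTG1 differed by 0.81 ± 0.0991 and 0.79 ± 0.107 (limma adjusted p = 0.000615 and 0.0012), but under quantile normalization ACTG1 was at 0.39 and not called (adjusted p = 0.126). ARHGDIB, a GDP dissociation inhibitor, differed by 2.05 ± 0.312 (limma adjusted p = 0.00267), and FIBCD1, a chitin-binding receptor, by 2.14 ± 0.435 (adjusted p = 0.0150, and 0.105 without untreated replicate 3).

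Some targets of NRF2, the oxidative stress regulator, and both chains of an amino acid exchanger had a lower difference under the SOX10 siRNAs. OSGIN1, an NRF2 target that restrains growth, was at 95.5 and 35.7 TPM with siSOX10_1 and siSOX10_2 in batch 3, against 182 and 155 TPM and 73.6 and 62.3 TPM. It was at 210.6 TPM with siCNTL in batch 3 against 79.1 and 86.0 TPM, and at 278 TPM in untreated cells against 101 and 90.0 TPM. Batch 3 was below both other libraries of each SOX10 siRNA and above both others of each control treatment (-2.29 ± 0.152, limma adjusted p = 3.34e-06). Of 17 NRF2 targets 4 had a lower difference under the SOX10 siRNAs and 0 a higher one, against 3.45% and 1.27% of all genes. Those shares of all genes were 1.91% and 2.42% under median-of-ratios scaling. Without untreated replicate 3 the lower ones numbered 2, and under median-of-ratios scaling 3 were lower and 1 higher. The lower ones include TKT, transketolase, at -0.84 ± 0.124 (limma adjusted p = 0.00236) and TXNRD1, thioredoxin reductase 1, at -0.73 ± 0.130 (adjusted p = 0.00734, and 0.0674 without untreated replicate 3). SLC7A5 and SLC3A2, the chains of the amino acid exchanger LAT1, differed by -1.21 ± 0.201 and -0.96 ± 0.126 (limma adjusted p = 0.00580 and 0.00110). With siCNTL alone as the control, which leaves 1 control library in batch 3, SLC7A5 and TXNRD1 were not called. Of the genes named above, AXL, HK2, S100B, EGFL8 and CLDND2 were not called in that setting either.

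**Figure D5:**
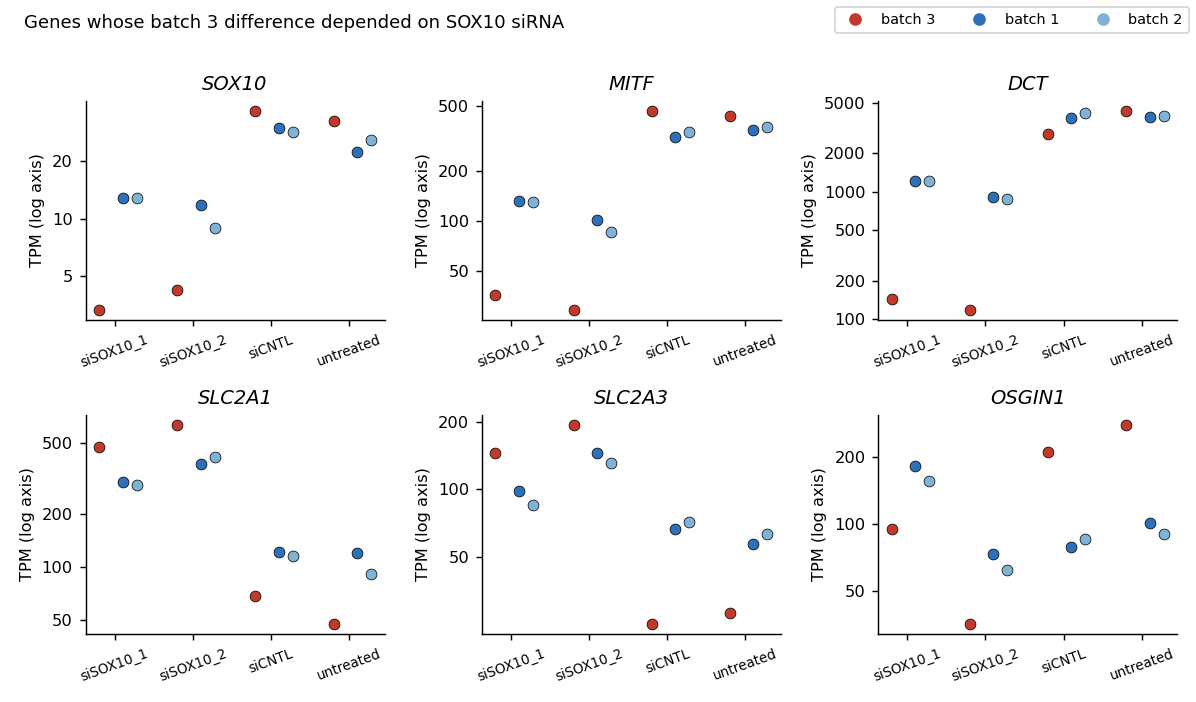
TPM on a log axis of 6 genes in each library, by treatment, with batch 3 in red left of batches 1 and 2 in 2 blues. SOX10, MITF and DCT are lower in batch 3 after either SOX10 siRNA, SLC2A1 and SLC2A3 are higher in batch 3 after SOX10 siRNA and lower in its controls, and OSGIN1 has the reverse order.

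The SOX10 siRNA effect itself was therefore not the same size in the 3 batches. The log2 difference of the SOX10 siRNA libraries from the controls of the same batch had an SD over genes of 0.764 in batch 1, 0.753 in batch 2 and 0.863 in batch 3. Past 2-fold, 731, 712 and 1319 genes were lower and 1527, 1546 and 1220 higher in batches 1, 2 and 3. On deposited TPM, batches 1 and 2 were thus alike in these counts, and batch 3 had more genes lower and fewer higher. That split depends on the scaling. Under median of ratios 1032, 921 and 1329 genes were lower and 1145, 1187 and 1255 higher in batches 1, 2 and 3, with SDs of 0.761, 0.749 and 0.873, so that batch 3 had more genes past 2-fold on both sides. The effects of different batches, which share no library, correlated over the 15738 genes with a Pearson r of 0.759 between batches 3 and 1, 0.738 between batches 3 and 2 and 0.811 between batches 2 and 1. The melanocyte list's median effect was -1.89, -2.01 and -2.65 in batches 1, 2 and 3, and that of the invasive list 1.82, 1.84 and 2.45. In the list of the integrated stress response it was near 0 in each batch, at -0.01, -0.10 and 0.04.

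Transfection as such was also compared with its absence. For the dependence of the batch 3 difference on transfection (siSOX10_1, siSOX10_2 and siCNTL against untreated cells), limma called 0 genes, with 1685 at an unadjusted p under 0.05. This fit rests on 1 untreated library in batch 3. Without siCNTL replicate 3 it called 491 genes.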

How the data were processed

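RNA of 12 A2058 libraries was sequenced after SMART-Seq v4 amplification and Nextera XT library preparation, per the labels' protocols. The authors deposited 1 table of TPM per gene and library, with a column for gene length that entered no test. Reads were handled with bcl2fastq and DRAGEN, per the submitters' processing notes. Tool versions, genome build, annotation and strand setting were not given in the sources used here. Of the tested gene IDs, 98.2% were found in GENCODE v29 (GRCh38), and 99.9% of these overlapped the same place. Because TPM holds neither read counts nor depth, no count test, interval or detection limit is given.

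TPM were taken as log2(TPM + 1), without further scaling, for genes reaching 1 TPM in 3 or more of the 12 libraries. limma 3.58.1 in R 4.3.3 (trend and robust) was fitted with treatment and batch 3 as terms, then with their interactions, and p-values were adjusted by Benjamini-Hochberg over all 15738 genes. The fits of the batch 3 difference and of its dependence on SOX10 siRNA were run on simulated data with independent noise in each library. That setting leaves out the correlation among libraries of a batch, so it cannot check error rates under it. Library summaries were tested by exact permutation of the batch 3 label within treatments.

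Same-numbered libraries are paired, since the labels call the number a batch. Their deviations from treatment means correlated with a median r of 0.32 among batch 3 libraries, 0.238 among those of batch 1 and 0.0922 among those of batch 2. The median was 0.23 among all pairs of the same batch and -0.14 among those of different batches. Deviations from a treatment mean cancel within that treatment, so the negative value follows in part from the positive one and is no separate evidence. As batch 3 is itself the comparison, the replicate block was run as batches 1 and 2 as separate terms.

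The members and gene lists were chosen with earlier results of these data known. The named genes are the genes of the series title, the 12 with the largest rise and 12 with the largest fall (called, mean of at least 5 TPM, same direction in all 4 treatments), 6 each way for the dependence on SOX10 siRNA, and up to 4 called members per list. Other genes were named after their values were seen, and some items are not reported here. Promoter windows are those of RefSeq on GRCh38.p14. The alternatives were other pseudocounts, filters, scalings, thresholds and control sets, no treatment block, leaving out libraries or treatments, and, added after seeing the data, rescaling to protein-coding genes.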

Additional observations from a re-analysis of the deposited data

Results flagged for a closer look

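For 47 of the 79 genes checked, the batch 3 difference differed between the SOX10 siRNA libraries and the untreated and siCNTL libraries, by the interaction term in limma at an adjusted p under 0.05. Many of the 79 were named because of this term, so the count says nothing of how common such a difference is, and over all genes 743 of 15738 passed (4.72%). The values are the batch 3 difference under the SOX10 siRNAs minus that in the controls, in log2(TPM + 1). Among melanocyte, glial and neural crest genes these were SOX10 -1.76, MITF -2.13, TYR -2.19, TYRP1 -0.99, DCT -2.82, PMEL -2.14, MLANA -2.07, CAPN3 -2.05, RAB38 -1.43, GPNMB -1.37, TRPM1 -1.91, MBP -1.06, S100B -0.82, GJB1 -1.23 and L1CAM 1.62. Among genes of glucose uptake, glycolysis and hypoxia, with the alpha-arrestin ARRDC3, these were SLC2A1 1.62, SLC2A3 1.81, LDHA 0.85, PGK1 0.82, BNIP3 1.00, HK2 1.35 and ARRDC3 1.96. Among invasive-state, immediate early, signalling and actin genes these were FOSL1 1.44, CAV1 1.12, AXL 1.19, CCN1 1.91, DKK1 1.83, IER2 0.90, IER3 1.84, DUSP6 1.66, SPRY2 1.13, ACTB 0.81 and ACTG1 0.79. Among NRF2 targets and amino acid transporters these were OSGIN1 -2.29, TXNRD1 -0.73, TKT -0.84, SLC3A2 -0.96 and SLC7A5 -1.21. Among the remaining genes these were UTS2 -3.93, SERPINA5 -1.78, EGFL8 -2.17, FXYD3 -1.87, LHFPL3-AS1 -2.65, CLDND2 -2.72, RANBP3-DT -3.05, ARHGDIB 2.05 and FIBCD1 2.14. 

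For 2 genes the batch 3 difference in 1 treatment stood apart from those in the other 3 by more than Dixon's critical gap for 4 values. TXNIP differed by 4.74 with siSOX10_2, and CTSK differed by 1.38 in untreated cells. Chance gives such a gap in about 1 of 20 genes.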

How the results depend on the processing

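Of 193 single-gene results under 5458 alternative values in all, 4273 kept direction and side of the threshold, 1163 lost the call, 16 gained it and 6 changed sign. The sign changes were in results that missed the threshold, which were IRF1 (dependence on SOX10 siRNA -0.19 without siCNTL replicate 2 and -0.14 without siCNTL replicate 3, with up to 0.76 without untreated replicate 3), EPHA2 (-0.025 without siCNTL replicate 3, -0.021 without siSOX10_2 replicate 2 and -0.14 without siSOX10_2 replicate 3, with up to 0.23 without siSOX10_1 replicate 3) and TXNIP (-0.012 without siSOX10_2 replicate 3, with up to 0.99 without siSOX10_1 replicate 3). Calls for batch 3 against batches 1 and 2 numbered 891 with no filter on low values, 1240 with quantile normalization, 64 with no treatment block, 621 without siSOX10_1, 473 without siSOX10_2, 779 without siCNTL, 250 against batch 1 alone, 24 against batch 2 alone, 552 at an adjusted p under 0.01 and 205 past 2-fold. Those that depended on SOX10 siRNA numbered 275 with no filter, 339 without trend and robust, 211 with siCNTL alone as the control, 198 at 0.01 and 371 past 2-fold. Under the SOX10 siRNAs the counts were 1802 with no filter, 1353 at 0.01 and 784 past 2-fold, and in untreated and siCNTL cells 198, 133 and 172, with 301 without trend and robust. Against batch 1 in the fit with 3 batches they were 74 with no filter, 596 with quantile normalization, 425 without trend and robust, 90 at 0.01 and 204 past 2-fold, and against batch 2 they were 66, 364, 328, 88 and 163. The dependence on transfection gave 296 calls with no filter, 12 at a mean of at least 5 TPM and 2 for siCNTL alone against untreated, and batch 2 against batch 1 gave 1 with a pseudocount of 5. The split of the SOX10 siRNA effect by batch under median of ratios was chosen after seeing the data. The causes were not tested.

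Leaving out each library in turn gave 763 to 2752 calls for batch 3 against batches 1 and 2, 275 to 653 for the dependence on SOX10 siRNA, 1179 to 3150 under the SOX10 siRNAs, 30 to 791 in untreated and siCNTL cells, 0 to 491 for transfection, 0 to 126 for batch 2 against batch 1, 109 to 1917 for batch 3 against batch 1 and 100 to 1546 against batch 2. Without untreated replicate 3 the transfection fit could not be made. With the replicate block the counts were 1677, 666 for the dependence on SOX10 siRNA and 1 for that on transfection, 15 of the 193 single-gene results lost their call, PMEL and MLANA among them (adjusted p = 0.0509 and 0.0732 over all treatments), and 0 gained one. As the values are TPM, changes are relative to the rest of each library, and low genes cannot be given a counting error.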
